A study of Mus musculus with 8 samples.

Results

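The measurements described here are the 4 arrays of cultured wild-type (WT) cortical astrocytes, 4 of the 8 arrays of a study of astrocytes with and without connexin43. They were chosen by their titles, WT cortical astrocytes 1 to 4, and are called WT 1 to WT 4. The astrocytes came from the cortex of neonatal C57BL/6j mice. Each array carried 2 labelled RNAs, and per the labels 1 channel held the astrocyte RNA and the other a reference pool of adult C57BL/6j tissues from males and females, with brain, liver, kidney, spleen, heart, aorta, lung, stomach and the gonads of either sex. No treatment is named in the labels, and each of the 4 arrays bore its own lot batch, numbered as the array. Whether the 4 samples are separate cultures or animals is not stated, so a p-value here reflects the spread among 4 arrays, which could be technical.

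Each value is a log2 ratio of astrocytes over pool, centred so that 0 is the median feature of that array. "Above the pool" therefore means above the array's median ratio, and a ratio does not tell more RNA in the astrocytes from less in the pool. The base of the logarithm is not stated and was taken as 2. The direction is likely rather than stated, since no dye is named: it rests on the labels' channels and on the side where known astroglial and adult tissue genes lie, so that side is not a separate finding for those genes. A gene is called above or below the pool when its mean differed from 0 at an adjusted p of 0.05 (limma, two-sided, Benjamini-Hochberg over all genes tested). The same pool was used throughout, so the test does not include any spread of the pool itself.

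Astrocytes are the glial cells that take up glutamate and potassium around synapses, supply lipids and amino acids to neurons, and become reactive after injury. Grown from newborn cortex, they are dividing cells on plastic, close to the radial glia from which they arise, and such cultures are known to carry some microglia and connective tissue cells of the brain's coverings. The pool, in contrast, is made of mature organs, several of which are rich in muscle, secretory epithelium or mitochondria.

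The sequence just before the gene start is shown for genes at both ends of the ratio, to set genes far above the pool beside genes far below it. These are the 2 highest and the 2 lowest, among the 15 genes furthest above and the 15 furthest below the pool with a ratio on all 4 arrays, that have an entry in the RefSeq promoter table of mouse build GRCm38.p6. Sprr2a3, the lowest, was passed over for its near-identical copies. Genes on the chromosome that carries Mbp were passed over as well, and Mbp, lower than Lgals2, is not shown. Each run is the 100 bases before the gene's start, 5′ to 3′ on the gene's strand, and capitals mark the letters TATAAA, the core of a TATA box. Fabp7 lies at chr10:57784823-57784922 on the plus strand, Abca1 at chr4:53159896-53159995 on the minus strand, Gkn2 at chr6:87373265-87373364 on the plus strand and Lgals2 at chr15:78855530-78855629 on the minus strand.
Fabp7: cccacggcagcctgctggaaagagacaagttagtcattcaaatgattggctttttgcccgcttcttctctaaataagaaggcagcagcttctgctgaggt
Abca1: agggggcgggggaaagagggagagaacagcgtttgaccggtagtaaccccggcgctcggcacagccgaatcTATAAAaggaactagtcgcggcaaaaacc
Gkn2: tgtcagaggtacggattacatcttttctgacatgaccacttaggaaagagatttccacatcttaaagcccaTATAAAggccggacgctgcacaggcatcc
Lgals2: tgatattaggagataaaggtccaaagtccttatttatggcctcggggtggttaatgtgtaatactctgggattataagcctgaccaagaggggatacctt
Abca1, far above the pool, and Gkn2, far below it, both held TATAAA at the same position, -29 from the gene start, while Fabp7 and Lgals2 held none in this window. On either strand of the 100 bases, TATAAA stood in 2.29% of the 2407 tested genes found in the table. The share was 2.50% of 200 genes called at least 2-fold above the pool and 6.13% of 261 called at least 2-fold below it, beside 5.95% of all 27025 genes in the table. A match describes the letters and does not show that a factor binds there.

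On the array, 9568 features were spotted, of which 7307 had a single gene symbol and covered 5822 genes. The share of features with a ratio was 57.6% on WT 1, 36.6% on WT 2, 37.5% on WT 3 and 55.8% on WT 4, so WT 2 and WT 3 limited what could be tested. A ratio on at least 3 arrays was available for 2968 genes, 2308 of them on all 4. Across those 2308 genes the arrays correlated pairwise at r = 0.811 to 0.927, WT 1 being the array in the lowest pair and WT 2 and WT 3 the highest pair; genes are not independent replicates.

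Of the 2968 genes, 835 were called above the pool (28.1%) and 831 below it (28.0%), 56.1% in either direction. These shares are the background for every gene group below. At least 2-fold above the pool lay 267 called genes (9.00%) and at least 2-fold below it 322 (10.8%), while 1077 called genes lay within 2-fold. Distances below the pool reached further: every array put 11 genes at 4-fold or more above the pool and 32 at 4-fold or more below, and a mean of at least 16-fold was reached by 1 gene above and 16 below. Without centring, the median over all genes was 0.22 against 0.01, and the calls split 1171 above to 577 below, so counts of small differences depend on where 0 is set.

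**Figure D1:**
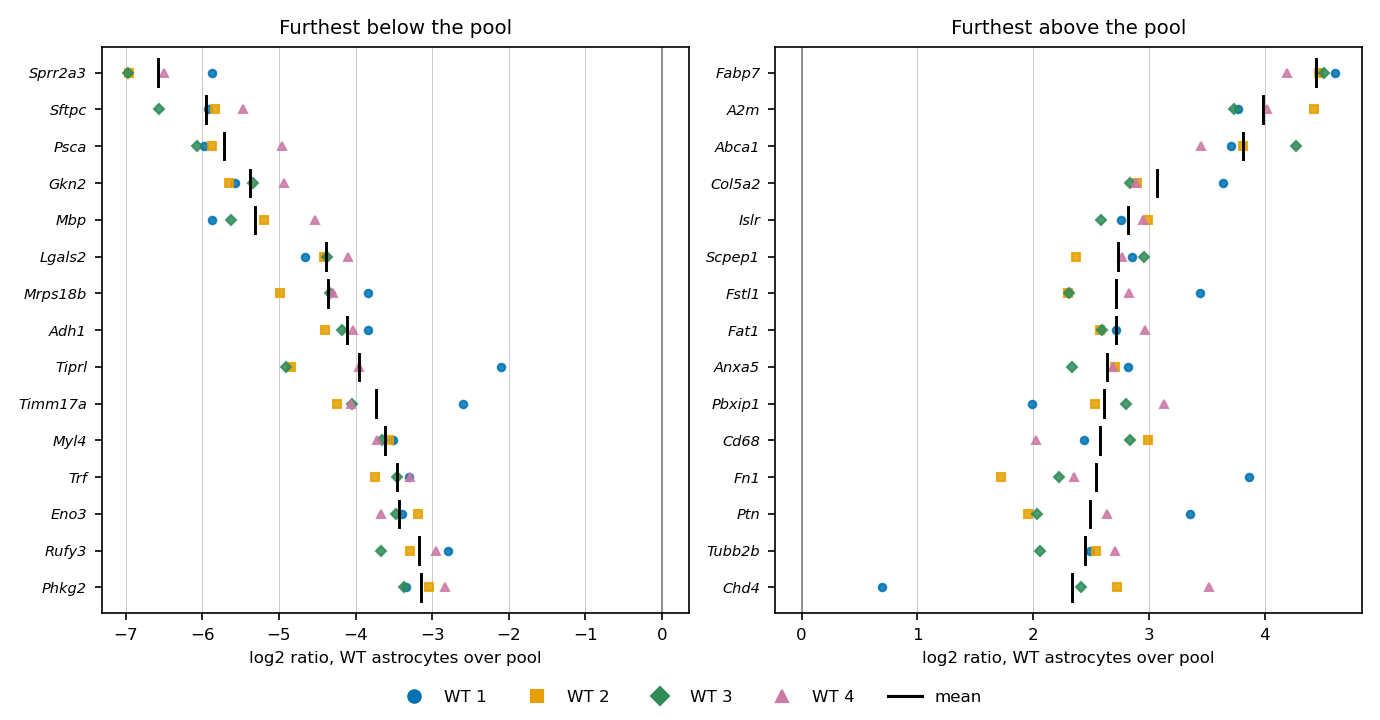
Log2 ratio of WT astrocytes over the adult tissue pool on each of the 4 arrays (markers) for the 15 called genes with the lowest means (left) and the 15 with the highest (right), among genes measured on all arrays with a single sign; black bars are means. Means run from -6.57 for Sprr2a3 to 4.45 for Fabp7, and Tiprl, Timm17a and Chd4 show 1 array, WT 1, nearer to 0 than the other arrays.

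Fabp7 stood furthest above the pool. This brain fatty acid binding protein, a label of radial glia and young astrocytes, gave 4.61, 4.47, 4.51 and 4.19 on WT 1 to WT 4, a mean of 4.45 ± 0.18 (SD, n = 4) or 21.8-fold (limma adjusted p = 6.39e-08). Its lowest array lay close to the others, and it was the only gene with a mean of at least 16-fold above the pool. A2m, the broad protease inhibitor alpha-2-macroglobulin, gave 3.77, 4.42, 3.74 and 4.02, a mean of 3.99 ± 0.32 (SD, n = 4) or 15.9-fold (limma adjusted p = 1.82e-07). Abca1, the transporter that loads cholesterol onto apolipoproteins, gave 3.71, 3.81, 4.27 and 3.45, a mean of 3.81 ± 0.35 (SD, n = 4) or 14.0-fold (limma adjusted p = 2.74e-07). Its 2 features had means of 3.26 and 4.36, both far above 0. These 3 genes were the ones at least 8-fold above the pool on every array.

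Several other genes of the highest 15 encode proteins of the cell surface or matrix. Col5a2 is a fibrillar collagen chain, Fn1 is fibronectin, Fat1 is a giant cadherin, Anxa5 is a calcium-dependent membrane binder and Islr is a secreted leucine-rich repeat protein. Their means were 3.06 for Col5a2, 2.82 for Islr, 2.71 for Fat1, 2.64 for Anxa5 and 2.54 for Fn1. Fn1 varied widely, with 3.86 on WT 1 against 1.72, 2.22 and 2.35 on WT 2 to WT 4. Also in this set were the lysosomal carboxypeptidase Scpep1 (2.73), the secreted Fstl1 (2.72) and Ptn (2.49), the PBX-interacting Pbxip1 (2.61), the macrophage glycoprotein Cd68 (2.58), the developmental beta tubulin Tubb2b (2.45) and the nucleosome remodeller Chd4 (2.33). Chd4 was the least even of them, with 0.69 on WT 1 and 2.41 to 3.51 on the other arrays.

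Astroglial markers lay above the pool as labelled. Of 14 on the array 8 were tested, with 6 called above, 0 below and a median of 1.47 against 0.01 over all genes. Id4, an inhibitor of helix-loop-helix factors in neural precursors, gave 1.78, 2.71, 1.98 and 1.86 (mean 2.08 ± 0.43, SD, n = 4; limma adjusted p = 1.73e-05). Cpe, the carboxypeptidase that trims prohormones, gave 1.37, 1.33, 1.68 and 2.28 (mean 1.67 ± 0.44, SD, n = 4; limma adjusted p = 5.90e-05). Every array of both genes lay more than 2-fold above the pool, and the same held for the membrane glycoprotein Gpm6b at a mean of 2.01 ± 0.18 (SD, n = 4).

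Sox9, the factor that sets glial fate, was measured on 3 arrays, at 0.79, 1.16 and 1.59 on WT 1, WT 3 and WT 4, with a mean of 1.18 ± 0.40 (SD, n = 3; limma adjusted p = 9.27e-04). Its WT 1 value was under 2-fold. The membrane protein Ttyh1 had a mean of 1.26. Aldoc, the brain aldolase, at 0.29 and the metallothionein Mt1 at 0.46 did not pass the test. The glutamate transporter Slc1a2, glutamine synthetase Glul and 4 other markers of this list had a ratio on at most 1 array and were not tested.

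Of 11 genes of radial glia and neural progenitors, 5 were tested and all 5 were called above, with a median of 1.53. Besides Fabp7 they were the calcium binder Rcn1 (2.44, 3 arrays), the hedgehog effector Gli3 (1.53), the RNA-binding Msi2 (1.02) and the cortical patterning gene Emx2 (0.78). Members of this list were chosen with earlier results of these data known, so the count is only a description. With all 4 arrays required, which leaves out Rcn1, 4 of 4 were above, with a median of 1.28. Emx2 stood at -0.02 on WT 1 and at 0.72 to 1.34 on the other arrays. Gli3 gave 1.35, 1.83, 1.75 and 1.20 on WT 1 to WT 4, so its arrays overlapped those of Id4.

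Of 9 tested markers of reactive astrocytes, 7 were called above and 1 below, with a median of 1.46. Cd109, a relative of alpha-2-macroglobulin anchored to the cell surface, reached 3.15, 3.27 and 3.62 on WT 1, WT 3 and WT 4. Tm4sf1 (1.75), the hyaluronan receptor Cd44 (1.46), the cytokine-activated factor Stat3 (1.34) and Emp1 (1.09) lay above as well. Lcn2, the siderophore-binding lipocalin, went the other way, at -2.54, -2.10 and -1.05 on the same 3 arrays (mean -1.90 ± 0.77, SD, n = 3; limma adjusted p = 4.99e-04), and Steap4 at -0.54 did not pass. Cd14 of this list is also a monocyte gene.

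**Figure D2:**
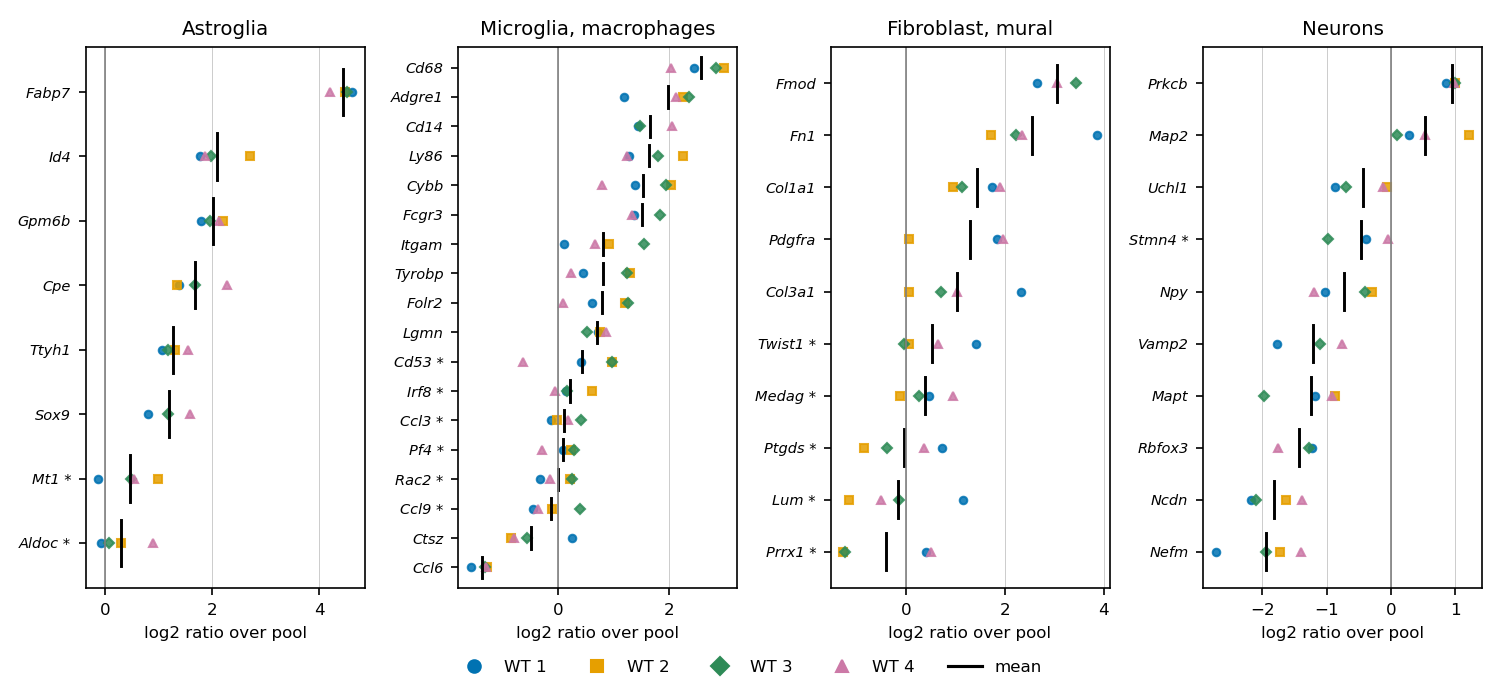
Log2 ratio over the pool on each WT array (markers) and mean (black bar) for tested markers of astroglia, microglia and macrophages, fibroblasts and mural cells, and neurons; an asterisk marks genes that were not called. All 8 astroglial means are above 0, while the neuronal means run from -1.95 (Nefm) to 0.95 (Prkcb).

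Markers of microglia and macrophages lay above the pool too, although the pool held spleen, lung and liver with their own macrophages. The array held 28 of them and 18 could be tested, with 10 called above and 2 below (median 0.74). The median of a list on an array, here and below, covers only its members measured on all 4 arrays, while the list median covers all tested members. For this list it ran from 0.13 on WT 4 to 0.83 on WT 2. Without WT 3 there were 8 above and 1 below of 16, with a median of 0.40. Cd68, a lysosomal membrane protein of phagocytes, gave 2.44, 2.99, 2.84 and 2.03 (mean 2.58 ± 0.43, SD, n = 4; limma adjusted p = 5.49e-06). Adgre1, the F4/80 antigen, gave 1.18, 2.25, 2.35 and 2.12 (mean 1.98 ± 0.54, SD, n = 4; limma adjusted p = 4.54e-05). Both were more than 2-fold above the pool on every array.

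The toll-like receptor partner Ly86 (1.64), the phagocyte oxidase subunit Cybb (1.53) and the Fc receptor Fcgr3 (1.32 to 1.82 on 3 arrays) were also above, and Itgam and Tyrobp lay at 0.81 and 0.80. The chemokine Ccl6 was below, at -1.58, -1.29, -1.32 and -1.31, as was the cathepsin Ctsz at -0.49. Irf8 (0.21), Pf4 (0.07) and Rac2 (-0.01) did not pass. In bulk RNA such as this, fewer cells of a type and less RNA per cell cannot be told apart. What part these cells had in the lysosomal and inflammatory values below was not tested.

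Fibroblast, meningeal and mural markers were called above in 5 of 10 tested and below in 0, with a median of 0.77. They split the arrays: the median was 1.28 on WT 1 and 0.79 on WT 4 but -0.04 on WT 2 and 0.10 on WT 3, and without WT 1 the counts were 3 above and 1 below of 8 tested, with a median of 0.28. The collagen-binding proteoglycan Fmod (3.05, 3 arrays), Fn1 and the bone and skin collagen Col1a1 (1.43) were above on all arrays that measured them. Twist1 (0.51), Lum (-0.17) and Prrx1 (-0.41), genes of mesenchymal cells, did not pass, and Lum ran from -1.17 on WT 2 to 1.15 on WT 1. The platelet-derived growth factor receptor Pdgfra, at 1.84, 0.05 and 1.96 on WT 1, WT 2 and WT 4, is shared with oligodendrocyte precursors.

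Of 3 tested endothelial genes 1 was called below and 0 above, and of 4 tested genes of oligodendrocytes and their precursors 2 were below and 1, Pdgfra, above. The endothelial and stem cell antigen Cd34 gave -1.65, -1.45, -1.14 and -1.97, while the endothelial cadherin Cdh5 (-0.40) and Mmrn2 (-0.31) did not pass. Mbp, the myelin basic protein, gave -5.88, -5.20, -5.62 and -4.53, a mean of -5.31 ± 0.59 (SD, n = 4) or 39.6-fold below the pool (limma adjusted p = 2.01e-07). Trf, the iron carrier made by liver and oligodendrocytes, gave -3.31, -3.75, -3.46 and -3.29. Brain was part of the pool, and the myelin enzyme Cnp at -0.11 did not pass.

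Of 10 tested neuronal markers 7 were called below and 2 above, with a median of -0.97, and without WT 4 there were 5 below and 1 above of 7 (median -0.57). The neurofilament Nefm gave -2.73, -1.73, -1.95 and -1.40, the neurite protein Ncdn -2.17, -1.63, -2.10 and -1.39, and the neuronal nuclear protein Rbfox3 -1.43 on average over 3 arrays. No array of these 3 genes overlapped 0. The kinase Prkcb, which immune cells also use, was above at 0.86 to 1.00, and the microtubule protein Map2 was above with a mean of 0.53 and values from 0.08 to 1.22, a call that was lost without WT 2 (mean 0.30, limma adjusted p = 0.156) or without WT 4 (mean 0.53, adjusted p = 0.0659).

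Matrix genes lay mostly above the pool. Of 22 tested collagens and matrix proteins, 12 were called above (54.5%) and 1 below, with a median of 0.87. Col5a2 gave 3.64, 2.90, 2.83 and 2.89, a mean of 3.06 ± 0.38 (SD, n = 4) or 8.37-fold (limma adjusted p = 1.19e-06). The glypicans Gpc4 (2.21) and Gpc6 (1.92), membrane proteoglycans that astrocytes are known to release at synapses, the syndecan Sdc2 (1.41) and the laminin chains Lama5 (1.25) and Lamc1 (1.15) were above as well. Gpc4 kept to a range of 1.91 to 2.70.

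The fibrillar Col3a1 was less even, at 2.33, 0.05, 0.70 and 1.03 on WT 1 to WT 4. Col6a1 (-0.15) and Col6a3 (-0.56) did not pass, and in these, as in Lum, WT 1 was the high array. The list median was 1.48 on WT 1 and 0.38 to 0.89 on the other arrays. Without WT 1 there were 10 called above and 2 below of 17 tested, with a median of 0.59. The exception below the pool was Spock2, a brain proteoglycan of the testican family, at -2.98, -2.58 and -2.60 on WT 1, WT 2 and WT 4.

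Enzymes that modify collagen were above in 4 of 8 tested and below in 0: the lysyl hydroxylases Plod3 (1.39) and Plod1 (0.64), the procollagen protease Bmp1 (0.89) and the collagen galactosyltransferase Colgalt1 (0.74). The crosslinkers Loxl2 (0.40), Loxl3 (0.08) and Tgm2 (-0.06) did not pass. Among matrix proteases and inhibitors, 9 of 14 were above and 4 below (median 0.72), and 9 and 1 of 11 without WT 3 (median 1.13). Besides A2m and Cpe, the gelatinase Mmp2 (1.24), the sheddase Adam10 (1.14) and the cysteine protease inhibitor Cst3 (1.14) were above. Pzp, the relative of A2m that adult mouse liver secretes, stood at the far opposite end, with -4.46, -5.11 and -4.95 on WT 1, WT 2 and WT 4 (mean -4.84 ± 0.34, SD, n = 3; limma adjusted p = 4.73e-07).

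**Figure D3:**
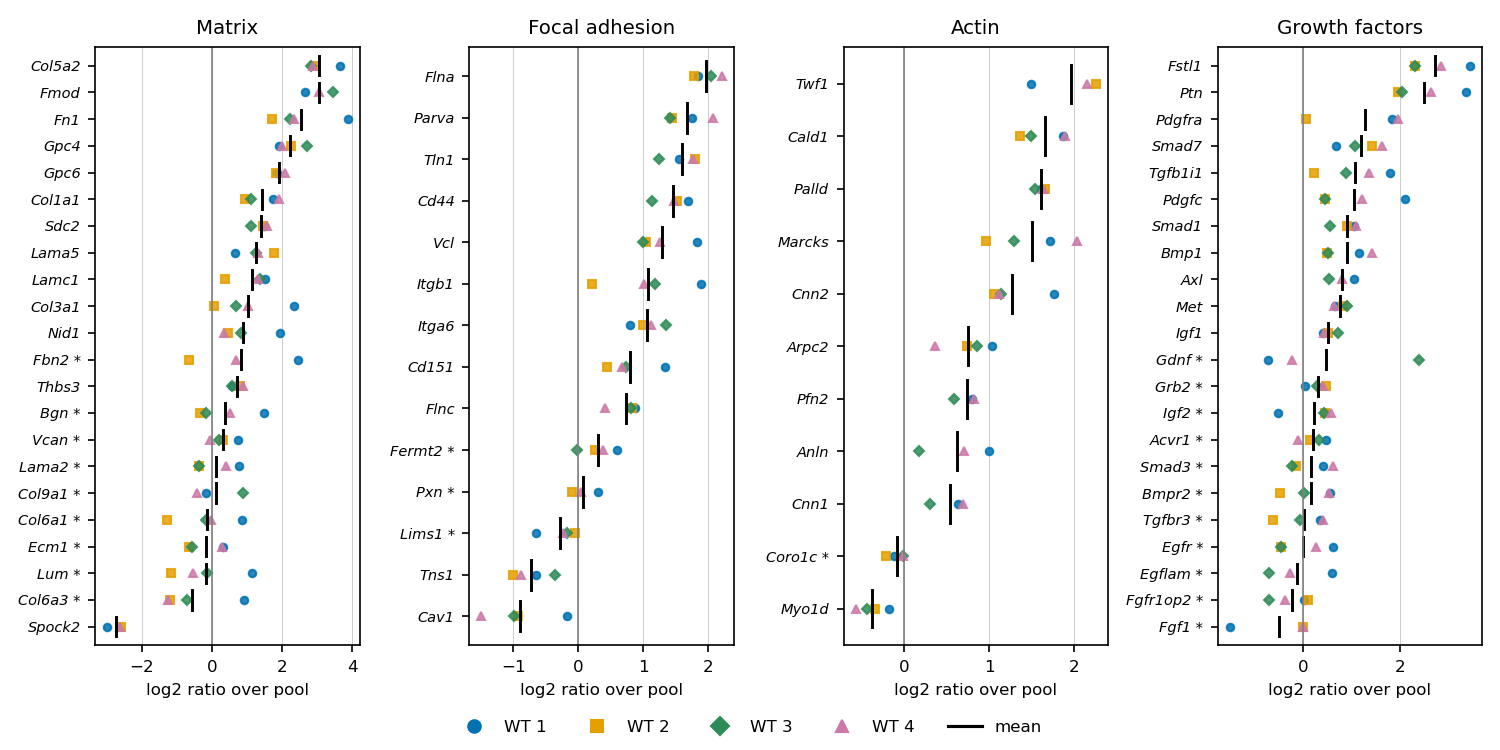
Log2 ratio over the pool on each WT array (markers) and mean (black bar) for tested genes of the matrix, focal adhesions, actin and growth factors; an asterisk marks genes that were not called. Most bars lie right of 0, the median being 0.87 for matrix and 0.93 for focal adhesion, and WT 1 is often the highest marker in the matrix panel.

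Genes that tie the matrix to the cytoskeleton lay above as a group. Of 14 tested integrin and focal adhesion genes 9 were called above and 2 below, with a median of 0.93. The actin crosslinker Flna gave 1.85, 1.79, 2.04 and 2.21 (mean 1.97 ± 0.19, SD, n = 4; limma adjusted p = 5.35e-06). The adaptor Parva (1.67), talin (Tln1, 1.59), vinculin (Vcl, 1.28) and the integrin chains Itgb1 (1.07) and Itga6 (1.06) followed. The 4 features of Parva ranged from 1.21 to 2.72, all above the pool. Caveolin (Cav1, -0.89) and the tensin Tns1 (-0.72) were below, and paxillin (Pxn, 0.08) did not pass. The 2 features of Tns1 differed, at -1.41 and -0.29.

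Of 11 actin genes 9 were called above and 1 below (median 0.75). Leaving out an array removed genes measured on 3, with 5 of 7 above without WT 1 (median 1.10), 6 of 8 without WT 3 (median 1.44) and 5 of 7 without WT 4 (median 1.32). Palld, a scaffold of stress fibres, gave 1.61, 1.65, 1.53 and 1.64, among the most even values of any named gene (mean 1.61 ± 0.05, SD, n = 4). The monomer binder Twf1 (1.96, 3 arrays), caldesmon (Cald1, 1.65), Marcks (0.97 to 2.03) and the calponin Cnn2 (1.27) were above. Microtubule genes were mixed, with 4 above and 3 below of 15 (median -0.04, and 0.23 to 0.40 without WT 1, WT 3 or WT 4). Without centring they were 6 above and 1 below (median 0.14). Tubb2b stood at 2.06 to 2.71 and the centrosomal Nde1 at 1.46 to 1.59, whereas the neuronal tau gene Mapt lay at -1.24 and the dynein regulator Pafah1b1 at -0.62.

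Growth factor genes were called above in 11 of 22 tested and below in 0, with a median of 0.49. Fstl1, a secreted follistatin relative, gave 3.44, 2.30, 2.31 and 2.83 (mean 2.72 ± 0.54, SD, n = 4; limma adjusted p = 7.69e-06). Ptn, the heparin-binding pleiotrophin, gave 3.36, 1.96, 2.03 and 2.64 (mean 2.49 ± 0.65, SD, n = 4; limma adjusted p = 2.75e-05). In both, WT 1 was highest and WT 2 and WT 3 lowest. The TGF-beta inhibitor Smad7 (1.20), the ligand Pdgfc (1.05), the BMP effector Smad1 (0.90), the receptors Axl (0.80) and Met (0.76) and the ligand Igf1 (0.52) were above. Igf2 (0.23), Egfr (-0.01) and Smad3 (0.16) did not pass. Tgfb1i1 (1.06), counted here by its name, is a focal adhesion adaptor.

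Among cytokine genes, Stat3 and the receptors Tnfrsf19 (1.08) and Il4ra (0.53) were above, and 7 of 15 were below against 4 above (without centring, 4 and 4; without WT 3, 6 and 2 of 14). Ccl27a, a chemokine of skin, gave -2.48, -2.40, -2.69 and -2.52. The neuronal chemokine Cx3cl1 lay at -1.39 and the suppressor Socs2 at -0.95. Interferon genes were 5 above and 3 below of 15, and 7 and 1 without centring, the GTPase Irgm1 (1.44, 3 arrays) and Ifi27 (0.97) at the top and the receptor Ifngr1 (-1.17) at the bottom. Of 22 complement and coagulation genes 2 were tested, of which the complement inhibitor Cd59a was above at 0.81 and Tfpi at 0.39 did not pass.

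The organelles split in opposite directions. Of 19 tested lysosome genes 14 were called above and 2 below (73.7% above, median 0.63), and of 23 genes of the respiratory chain and electron transfer 20 were called below and 1 above (87.0% below, median -0.92). Without centring these were 15 and 1 for the lysosome and 16 and 2 for the respiratory chain. The median of the lysosome list lay between 0.51 and 0.71 on the 4 arrays and that of the respiratory list between -1.18 and -0.82, so the arrays did not overlap.

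Arsb, the lysosomal arylsulfatase, gave 2.15, 1.90, 2.01 and 1.70 (mean 1.94 ± 0.19, SD, n = 4; limma adjusted p = 5.59e-06). The cathepsin Ctsb gave 1.52, 1.71, 1.86 and 1.20. The peptidase Tpp1 (1.37), the thioesterase Ppt1 (1.18) and the membrane proteins Scarb2 (0.86) and Lamp1 (0.63) were above. Ctsz and the proton pump subunit Atp6v1c1 (-0.73) were below. Lgmn and Ctsz stand in the phagocyte list as well, whose median ranged from 0.13 to 0.83 over the same arrays. How far macrophage lysosomes contributed was not tested.

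**Figure D4:**
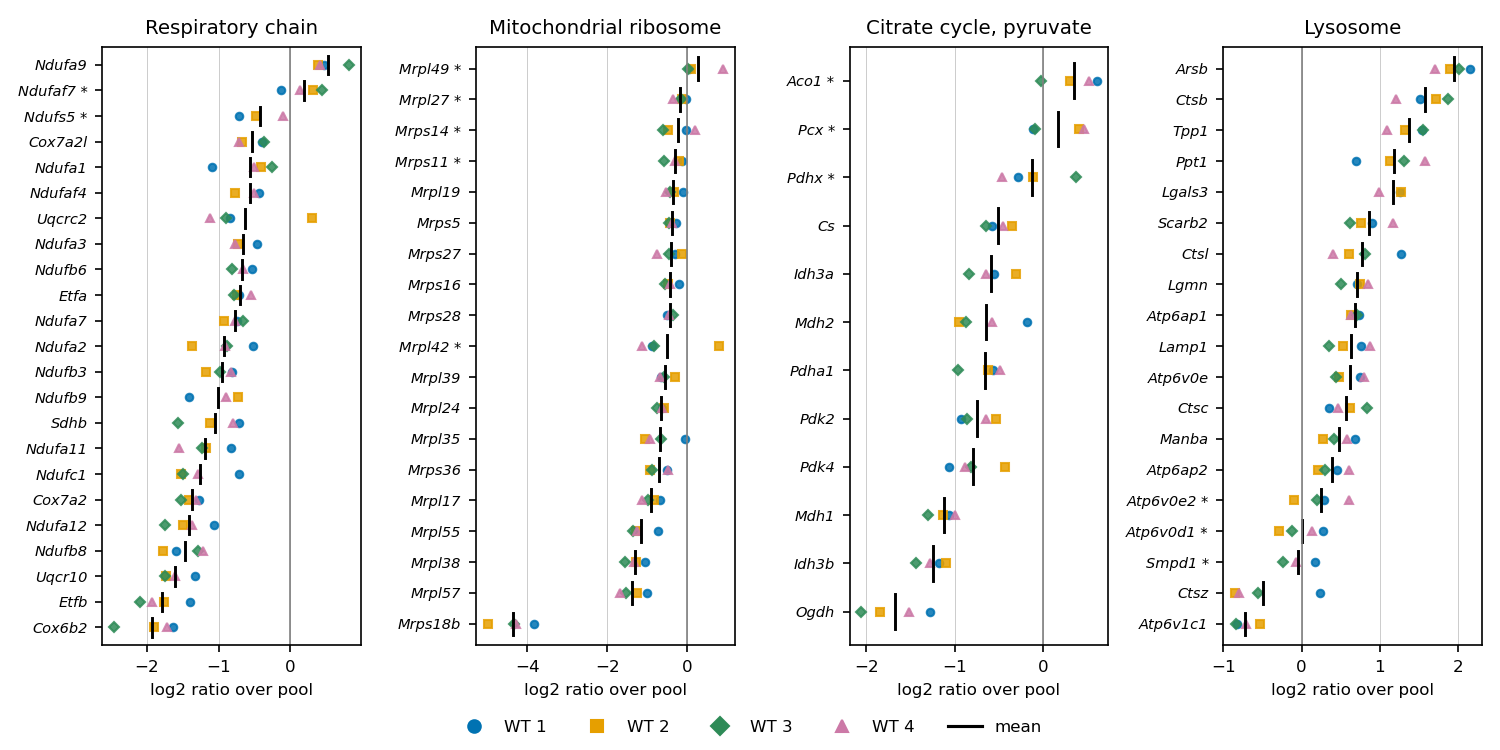
Log2 ratio over the pool on each WT array (markers) and mean (black bar) for tested genes of the respiratory chain, mitochondrial ribosome, citrate cycle and pyruvate, and lysosome; an asterisk marks genes that were not called. Respiratory chain medians lie between -1.18 and -0.82 on the arrays and lysosome medians between 0.51 and 0.71, and Mrps18b stands apart at -4.36.

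Below the pool in the respiratory chain were the testis form of cytochrome oxidase subunit 6B (Cox6b2) at -1.64, -1.89, -2.46 and -1.72 and the electron transfer flavoprotein Etfb at -1.40, -1.76, -2.09 and -1.93. Uqcr10 of complex III gave -1.32, -1.73, -1.75 and -1.61 (mean -1.60 ± 0.20, SD, n = 4; limma adjusted p = 1.69e-05). Each of these lay more than 2-fold below the pool on every array. Of complex I, Ndufb8 (-1.47), Ndufa12 (-1.42), Ndufc1 (-1.26) and Ndufa11 (-1.19) were below, as were Sdhb of complex II (-1.05) and Cox7a2 of complex IV (-1.38). The exception was Ndufa9 of complex I, above at 0.47, 0.38, 0.82 and 0.41, a call that was lost without WT 3 (mean 0.42, limma adjusted p = 0.0547). The assembly factor Ndufaf7 (0.19) did not pass.

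The citrate cycle and pyruvate list had 9 of 12 called below and 0 above (median -0.66). Ogdh, the oxoglutarate dehydrogenase, gave -1.28, -1.84, -2.06 and -1.52, Idh3b of isocitrate dehydrogenase -1.18, -1.10, -1.44 and -1.28, and the cytosolic malate dehydrogenase Mdh1 -1.06, -1.13, -1.30 and -0.99. Citrate synthase (Cs, -0.51) and pyruvate dehydrogenase (Pdha1, -0.66) were nearer to 0. Pcx, the pyruvate carboxylase used by astrocytes to refill the cycle, lay at 0.16 and the iron-regulated cytosolic aconitase Aco1 at 0.35, and neither passed. In fatty acid oxidation 7 of 11 were below and 1 above, with Ech1 at -1.49, Hadhb and Bdh1 at -1.03 and, above, the branched-chain acyl dehydrogenase Acadsb at 0.88.

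Mitochondrial ribosomal proteins were below in 14 of 19 and above in 0, with a median of -0.52, and below in 8 without centring and in 9 of 18 without WT 3. Mrps18b stood apart from the others, at -3.84, -4.99, -4.33 and -4.29, a mean of -4.36 ± 0.47 (SD, n = 4) or 20.6-fold below the pool, against -1.37 for the next lowest, Mrpl57. This value came from 1 of its 2 features, the other having no ratio. Timm17a, a subunit of the inner membrane translocase, was also far below, at -2.60, -4.25, -4.05 and -4.06.

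Cytosolic ribosomal proteins lay below in 5 of 11 and above in 1, with a median of -0.53, but the list median was 0.15 on WT 1 and -0.97 to -0.55 on the other arrays. Rpl8 gave -0.21, -1.03, -0.87 and -1.19, and Rps15a gave -0.22, -0.97, -0.81 and -1.06, with WT 1 near 0 in both. Rpl5 was the exception at 0.98, 1.18, 0.92 and 1.25. Translation factors and tRNA synthetases were above in 10 of 26 and below in 3 (15 and 1 without centring), led by the synthetases Rars (0.96, 3 arrays) and Eprs (0.95), with the mitochondrial Fars2 at -0.86. Many ribosomal protein genes have near-identical processed copies, so spots for them may also catch those.

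In sugar metabolism 4 of 8 genes were called below and 1 above, and 2 and 3 without centring. The muscle enolase Eno3 gave -3.40, -3.19, -3.47 and -3.67, and hexokinase Hk1, the form that mature brain uses most, -2.09, -1.39, -2.13 and -1.43 (mean -1.76 ± 0.41, SD, n = 4; limma adjusted p = 3.61e-05). The brain glycogen phosphorylase Pygb was above at 0.58 to 1.33. Astrocytes hold most of the brain's glycogen, and the branching enzyme Gbe1 (0.02) and Ugp2 (0.27) of the same pathway did not pass, while the muscle glycogen synthase Gys1 lay at -0.42.

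Of 7 tested genes of lipid transport and fatty acid binding 2, Fabp7 and Abca1, were called above and 2 below (median -0.05, and 0.34 to 0.44 without WT 1, WT 2 or WT 4). In cholesterol and fatty acid synthesis 2 of 9 were above, the desaturase Fads1 at 1.04 to 1.20 and squalene epoxidase Sqle at 0.64 to 0.89, and 3 below, the sterol isomerase Ebp (-1.07), Fads3 (-0.83) and the stearoyl desaturase Scd1 (-0.76). Acaca (0.09) and Acly (-0.02), which begin fatty acid synthesis, did not pass. Of the relatives of Abca1, Abca7 lay at -0.76 and Abca2 at -0.57, both below, and Abcg1 at 0.67 did not pass. Fabp7 was the only fatty acid binding protein tested.

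Amino acid enzymes split 5 above and 5 below of 12. Psat1, of serine synthesis, gave 2.02, 1.42, 1.54 and 1.10, and its partner Phgdh had a mean of 0.58. Glutamate dehydrogenase Glud1 stood at 0.79, 1.21 and 1.67 on WT 1, WT 3 and WT 4. Below were asparagine synthetase Asns at -1.24, -2.22, -2.67 and -2.35, and 2 enzymes abundant in liver, the tyrosine-degrading Fah (-2.17 to -1.64) and the cysteine-forming Cth (-1.89).

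Detoxification and redox genes were below in 13 of 24 and above in 5 (without centring, 11 and 9; without WT 2, 8 and 6 of 20). The oxidative stress factor Nfe2l2 gave 1.86, 0.97, 1.11 and 1.56, and the heme oxygenase Hmox1 and the glutathione synthesis subunit Gclm, which it is known to drive, had means of 1.19 and 0.97. Another target, Nqo1, went the other way at -0.77, and the repressor Keap1 lay at -0.46. The drug-metabolising enzymes were far below, among them Akr1c21 (-3.92, 3 arrays), Gsta3 at -2.86, -2.63, -2.72 and -2.94, and Gstk1 (-2.40). Hmox2, the constitutive relative of Hmox1 and abundant in testis and brain, lay at -1.13 on 3 arrays.

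Several of the lowest genes are products of organs in the pool, and their side was part of the basis for the direction. Of 4 tested lung genes all were below. Sftpc, the surfactant protein of alveolar cells, gave -5.92, -5.83, -6.56 and -5.46 (mean -5.95 ± 0.46, SD, n = 4), which is 61.6-fold below the pool (limma adjusted p = 6.39e-08). The club cell secretoglobin Scgb1a1 gave -5.98, -5.59 and -5.89 on WT 1, WT 3 and WT 4. In stomach 3 of 4 were below, with gastrokine Gkn2 at -5.58, -5.65, -5.34 and -4.93, the granule protein Sycn at -2.65 and the pepsinogen Pga5 at -1.54.

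Of 12 liver genes 10 were below (median -1.85), led by the apolipoprotein Apoc3 at -5.30, -5.48 and -5.26 on WT 1, WT 2 and WT 4. The inter-alpha inhibitor chain Itih4, also a liver product, was above at 0.65 to 0.95 on 3 arrays. Kidney genes were below in 7 of 11 and above in 0, with the scaffold Pdzk1 (-2.50) and its partner Pdzk1ip1 (-2.45) at the low end after Akr1c21. Without WT 2 the kidney list had 1 called below of 6 tested, since several of its genes were measured on 3 arrays.

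In heart and striated muscle 8 of 10 were below and 1 above, with a median of -2.72. The mitochondrial creatine kinase Ckmt2 gave -4.73, -3.99 and -4.40 on WT 1, WT 2 and WT 4, and the atrial myosin light chain Myl4 gave -3.51, -3.56, -3.65 and -3.71 (mean -3.61 ± 0.09, SD, n = 4; limma adjusted p = 9.30e-08). The calcium store genes Casq2 (-3.16, 3 arrays) and Atp2a2 (-2.94) were below as well. Csrp3, the muscle LIM protein, was above at 0.29, 0.83, 0.55 and 0.74. Without WT 2 the list median was -0.61 over 7 tested genes.

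Smooth muscle and aorta genes were mixed, with 4 above and 3 below of 9 (median 0.37), and without WT 3 there was 1 above and 3 below of 7 (median -0.35). Without WT 1 or WT 4 the median was -0.30 or -0.29, with 2 above and 3 below of 7. Those above were contractile or matrix genes, Fmod, Cald1, Smtn (0.91) and Cnn1 (0.54). Those below were genes used in fat, namely the lipase Pnpla2 (-1.53), the brown fat uncoupler Ucp1 (-1.17) and Scd1. Fat is not named among the tissues of the pool, and whether fat around the aorta had a part was not tested. Smtn ranged from 0.05 on WT 4 to 1.64 on WT 2, and its call was lost without WT 2 (mean 0.66, limma adjusted p = 0.0554) or WT 3 (mean 0.69, adjusted p = 0.0701). Of the 2 features averaged for Smtn, only 1 had a ratio on at least 3 arrays, and its mean was 1.39. Spleen and blood genes were below in 6 of 12 and above in 1, with the B cell gene Ms4a1 at -1.65, -1.53, -1.39 and -2.67 and the erythroid cytoskeletal gene Add2 at -0.99. The gene above was Hmox1, which spleen macrophages use to break down heme. The 2 tested testis genes were below, the sperm protein Smcp at -4.96, -5.92 and -4.73 on WT 1, WT 3 and WT 4, and Asrgl1 at -1.41. No ovary gene was tested.

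Some of the lowest genes belong to none of these organs' lists. Sprr2a3, a small proline-rich protein of stratified and gut epithelium, was the lowest of all, at -5.88, -6.95, -6.97 and -6.50 (mean -6.57 ± 0.51, SD, n = 4) or 95.3-fold below the pool (limma adjusted p = 6.39e-08). The gene table lists 3 symbols of this Sprr2a group, whose near-identical copies cannot be told apart by a spot. Psca, an epithelial surface antigen of stomach and bladder, gave -5.97, -5.87, -6.07 and -4.95. Lgals2 (-4.38), a gut galectin, Adh1 (-4.11), the liver alcohol dehydrogenase, and Phkg2 (-3.14), the liver and testis phosphorylase kinase subunit, are genes of visceral organs. Rufy3 (-3.17) is best known in neurons.

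Tiprl, a regulator of phosphatase signalling, lay at -2.10 on WT 1 and at -4.85, -4.90 and -3.95 on the other arrays. Its second feature had no ratio. The arrays of Tiprl spanned a wider range than those of any other gene of the lowest 15. Epithelial junction genes were below in 4 of 5 and above in 0, among them Dsg2 (-1.84), Cgn (-1.47) and Ppl (-1.15), each on 3 arrays. Without WT 3 there was 1 below of 3 tested, with a median of -0.42.

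Membrane transport genes went both ways, with 13 above and 15 below of 50 tested, and 18 and 10 without centring. Without WT 3 there were 9 above and 9 below of 43. The neutral amino acid carrier Slc38a1 gave 1.74, 2.28 and 2.99 on WT 1, WT 3 and WT 4, and the potassium-chloride cotransporter Slc12a4 gave 1.86, 1.59, 1.61 and 1.66 (mean 1.68 ± 0.12, SD, n = 4; limma adjusted p = 8.88e-06). The heavy chain Slc3a2, which carries light-chain amino acid transporters to the surface, stood at 1.35, while its kidney and gut relative Slc3a1 stood at -1.17. The creatine transporter Slc6a8 (1.19) was above and the glycine transporter Slc6a9 (-1.19) below. Slc25a47, a liver mitochondrial carrier, gave -3.46, -2.70, -2.62 and -3.11. Slc9a3r2 (-1.55), in the list by its name, is a scaffold and not a transporter.

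Of 62 secretory pathway genes 18 were above and 9 below (median 0.18), and 30 and 7 without centring (median 0.39). The translocon protein Ssr3 gave 1.22, 1.39, 1.79 and 2.42, and clathrin heavy chain Cltc 1.33, 1.10, 1.08 and 1.12. Among genes with a neuronal and a general form, the neuronal dynamin Dnm1 gave -2.69, -2.84, -3.13 and -2.14 while the general Dnm2 lay at -0.17 and did not pass. Likewise Rab6b, rich in brain, lay at -1.65 and the general Rab6a at 0.08, which did not pass. These pairs were put together after their values were seen. Of the 2 features averaged for Rab6b, only 1 had a ratio on at least 3 arrays, at a mean of -2.06, and the call of Rab6b was lost in 1 of 16 alternatives. Sec14l2 (-2.38), counted by its name, is a lipid transfer protein of liver.

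Chaperones were above in 6 of 24 and below in 9 (8 and 7 without centring). The endoplasmic reticulum isomerase Fkbp9 (1.68), the small heat shock protein Hspb8 (1.49) and the cyclophilin Ppic (1.16) were above, and the muscle heat shock protein Hspb7 (-2.50, 3 arrays), the steroid receptor partner Fkbp4 (-1.76) and Dnajc27 (-1.45), a small GTPase with a J domain, were below. Proteasome and ubiquitin genes were 7 above and 10 below of 36 (14 and 6 without centring; 3 and 10 of 31 without WT 1), with means from -1.16 for Ube2j1 to 1.21 for Usp22. The 3 features of Ube2j1 disagreed, from -2.10 to 0.26.

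Of 34 tested cell cycle genes 9 were called above and 8 below, with a median of 0.02. Without centring these were 14 above and 6 below, with a median of 0.23, so the balance of the list depends on where 0 is set. With centring the list median was 0.41 on WT 1, 0.04 and 0.07 on WT 2 and WT 3 and -0.40 on WT 4. The helicase subunit Mcm6 gave 1.59, 1.38, 1.24 and 1.17, Mcm4 gave 1.90, 1.02, 1.60 and 0.61 and the kinase Cdk6 gave 1.33, 0.92, 1.06 and 1.55. Another subunit of the same helicase, Mcm7, was below at -0.63. The mitotic kinase Cdk1 was above at 0.94. The mitotic kinesin Kif2c gave -1.32, -1.95, -2.01 and -2.02, and Cdc25a (-0.85), Cks2 (-0.86) and Foxm1 (-0.66), drivers of division, were also below. Testis and spleen, which hold dividing cells, were in the pool, and what part they had in these values was not tested.

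Transcription factor families gave 22 above and 13 below of 52 (median 0.19), and 28 and 11 without centring (median 0.40). Pbxip1, a co-regulator rather than a DNA-binding factor, gave 1.99, 2.53, 2.80 and 3.13. The nuclear receptor Nr2f1, which patterns the cortex, gave 1.74, 2.00, 1.89 and 2.05 (mean 1.92 ± 0.14, SD, n = 4; limma adjusted p = 4.75e-06). Sox4 (1.60, 3 arrays), Gli3, Sox9 and the nuclear factor I genes Nfix (1.04), Nfib (0.97) and Nfic (0.60), which act in glial differentiation, were above. Below were Gata6 at -2.01, -2.78, -2.46 and -2.72, a factor of heart and gut, the oxysterol receptor Nr1h3 (-1.76, 3 arrays), Hoxa7 (-1.36), a gene of the trunk, and the muscle and neuronal factor Mef2c (-0.84). Nr1h3 is known to switch on Abca1, which lay at 3.81.

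Chromatin genes were above in 16 of 45 and below in 6, and splicing and RNA-binding genes above in 17 of 48 and below in 5. Without centring these were 20 and 2, and 26 and 4. Chromatin genes gave 10 above and 6 below of 37 without WT 1, and 9 and 4 of 37 without WT 4. The nucleosome-binding Hmgn3 gave 1.92, 1.71, 1.73 and 2.23. The remodellers Chd4 (2.33) and Chd3 (0.85) lay above and Chd5 (-1.64, 3 arrays), their neuronal and testis relative, below, as did the co-repressor subunit Mta1 (-1.49). Among RNA-binding genes Syncrip (1.33), Msi2, Hnrnpa2b1 (0.96) and the glial Qk (0.92) were above, and the helicase Ddx20 (-1.95) and Rbm4b (-1.08) below. The features of Rbm4b differed, at -1.54 and -0.28.

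**Figure D5:**
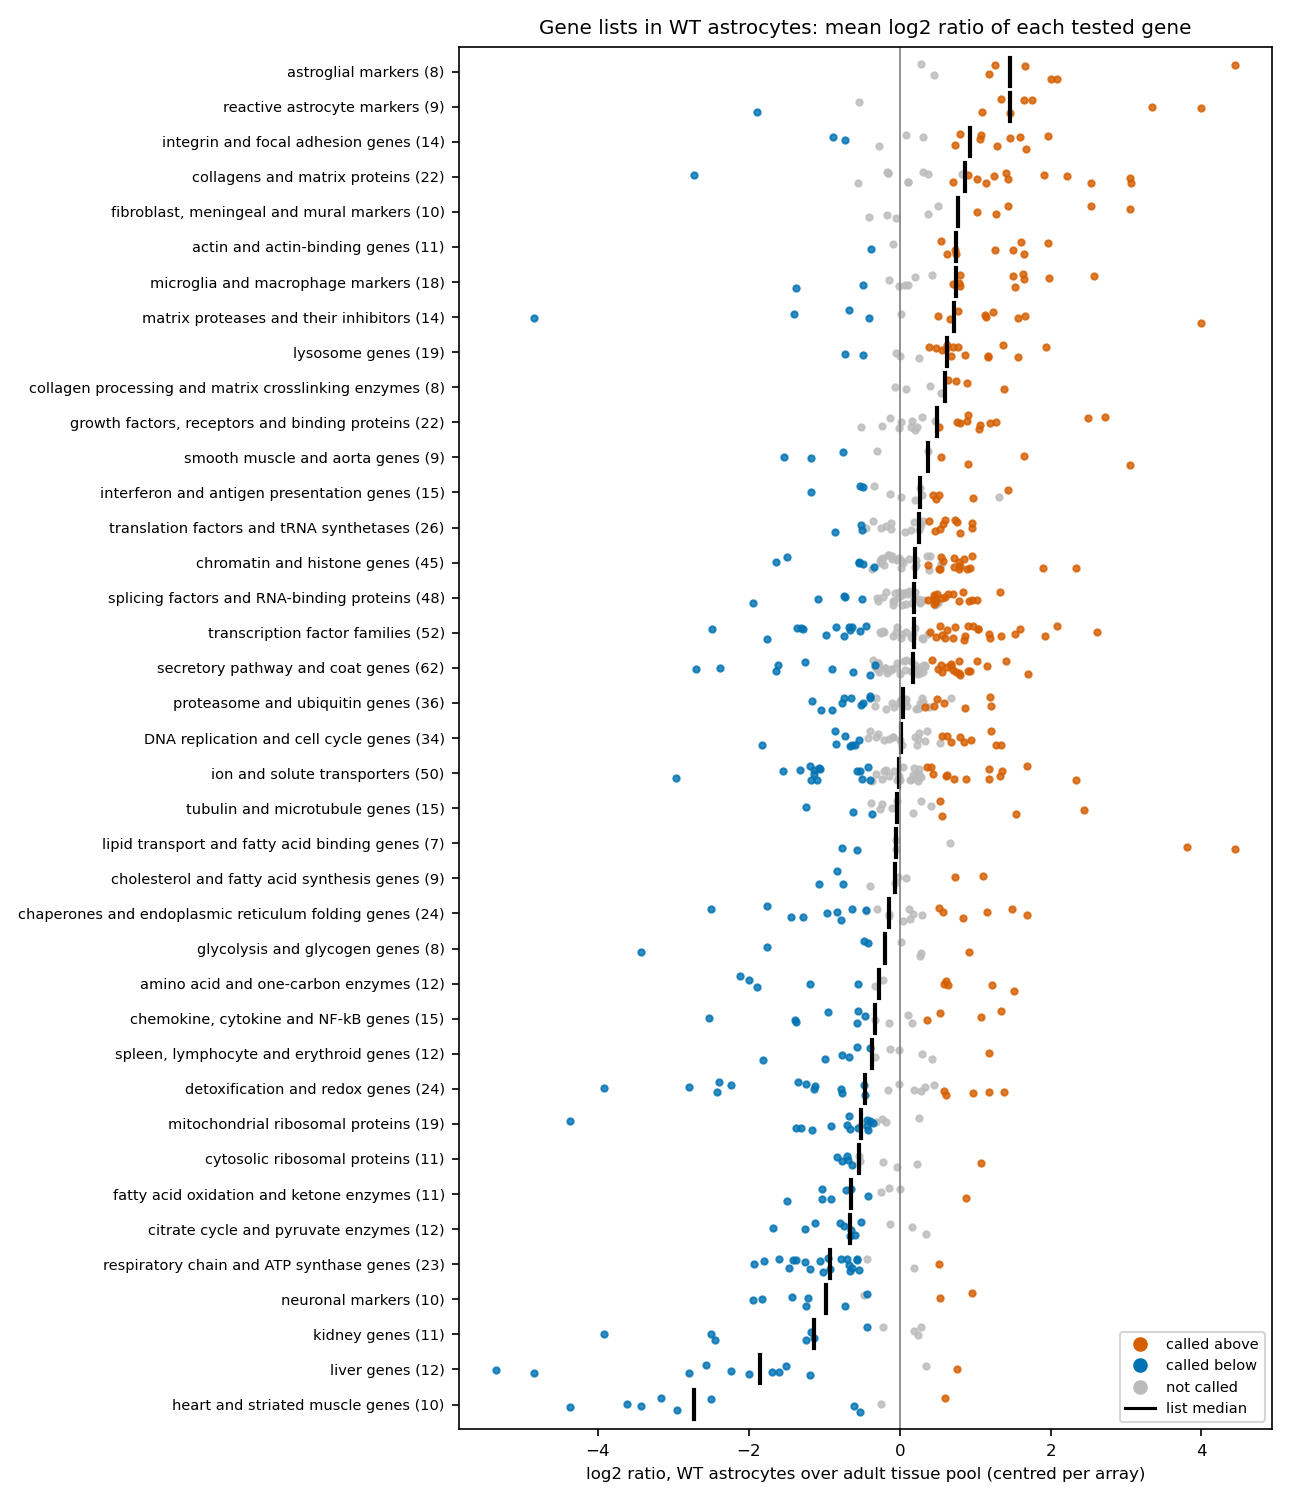
Mean log2 ratio over the pool of every tested gene (points) in the 39 lists with at least 7 tested genes, with the list median (black bar) and the number tested in brackets; orange and blue points are called above and below. The medians run from 1.47 for astroglial markers down to -2.72 for heart and striated muscle genes, and lists of the nucleus and the secretory pathway straddle 0.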

How the data were processed

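The deposited series table holds, per the labels, 1 column of the authors' processed log ratios for each 2-colour array, read here as log2 ratios. For the scanner, the dyes, the background correction and the within-array normalization, the method is not given in the sources used here. No dye swap is named, and no signals or counts per spot were used, so depth is unknown and the number of arrays limits the precision. If the base was not 2, folds would change and signs and p-values would not.

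The 4 WT arrays were taken by their titles; the connexin43 knockout arrays entered no step. An exact 0 was read as no ratio, the reason for the zeros being unstated. Each array was centred on its median (0.09, 0.32, 0.26 and 0.20 on WT 1 to WT 4 before centring), features of 1 symbol were averaged, and genes with at least 3 values were tested. Symbols came from the platform annotation; 7256 of the 7307 features with a single symbol matched the GRCm38.p6 gene table by Entrez number and 0 symbols changed. Features with several symbols (318) or none (1943) named no gene.

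The test was an intercept fit with lmFit and eBayes in limma 3.58.1 (R 4.3.3). Its script was tested on simulated data of 2968 genes with 200 changed: it called 70.7% of 1.5-fold, 99.3% of 2-fold and 100% of 4-fold changes, and 4.74% of its calls were false. The simulated noise was independent between genes and most genes were unchanged, so this false share does not carry over to the real calls.

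Gene lists were described by counts and medians, with no test of a list. The members and lists were chosen with earlier results of these data known. Genes were named by a rule: the 15 highest and 15 lowest means among called genes with 4 values of a single sign, the 3 called members of each list furthest above and furthest below with a single sign, the markers Fabp7, A2m, Abca1, Sox9, Id4 and Cpe, and every tested Fabp gene. Other genes in the text were chosen after their values were seen. The alternatives were no or other centring, scale and quantile normalization, zeros kept, all 4 or 2 arrays required, 1 feature a gene, robust and unmoderated tests, array weights, a test against 1.5-fold and leaving out each array.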

Additional observations from a re-analysis of the deposited data

Results flagged for a closer look

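For 159 named genes with 4 values and 39 lists, the highest or lowest array was compared with the others by its gap as a share of the range (Dixon's 95% limit for 4 values, which chance passes in about 1 of 20 groups). It was passed by 6 genes (3.77%) and 2 list medians, 4 of the genes on WT 1. The matrix gene Col5a2 stood at 3.64 on WT 1 against 2.83 to 2.90 on the other arrays. The translocase gene Timm17a stood at -2.60 on WT 1 against -4.25 to -4.05, and the mitotic kinesin Kif2c at -1.32 against -2.02 to -1.95. The chemokine Ccl6 stood at -1.58 on WT 1 against -1.32 to -1.29.

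On other arrays, the immunoglobulin joining chain Jchain stood at -1.47 on WT 4 against -0.60 to -0.44, and the uncoupler Ucp1 at -1.60 on WT 3, with -1.10 as the next lowest. The median of the liver genes measured on all 4 arrays was -1.80 on WT 1 against -1.52 to -1.48. That of the interferon and antigen presentation genes was 0.34 against 0.02 to 0.06. WT 1 had 5514 features with a ratio, against 3506 to 5343 on the other arrays. These medians used the same genes on every array, though the features averaged for a gene could differ between arrays. What part this had in the flagged values was not tested. All of the flagged genes and list medians kept their sign on all 4 arrays.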

How the results depend on the processing

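No paired analysis was possible because only the WT arrays entered the fit, so no other group shared their replicate numbers. Of 16 alternatives, most kept the 4 counts (835 and 831 above and below the pool, 267 and 322 at least 2-fold) within 1.5 times. The exceptions were no centring, with 430 genes at least 2-fold above and 67.0% of calls above against 50.1%; zeros kept as ratios, with 529 above and 532 below of 4020 tested; a ratio on 2 arrays enough, with 513 at least 2-fold below of 3740 tested; the test against 1.5-fold, with 251 above and 307 below; and the test without moderation, with 497 above and 530 below. Leaving out 1 array left 2311 to 2654 genes tested and gave 636 to 712 above, 597 to 638 below, 213 to 254 at least 2-fold above and 220 to 269 at least 2-fold below. Of the 199 named genes, 0 changed sign under any alternative and 130 were called in every alternative that gave a value. Calls were lost for 32 with zeros kept, 52 against 1.5-fold, 39 without moderation, 10 without centring and 1 to 9 without 1 array. With 1 array left out, only 159 to 180 of the 199 named genes could be tested, so the rest are not counted as lost. Across 317 genes with 2 features on at least 3 arrays, the features had the same sign in 229 (r = 0.66 across genes), and in 32 of the 33 where both were at least 2-fold from the pool. The signal over background is unknown here, so no bound can be set for dim features.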

Other observations

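Genes measured on 2 arrays were not tested, and 752 of these 772 had their ratios on WT 1 and WT 4, the arrays with most ratios. On both, 58 genes lay at least 4-fold below the pool and 12 at least 4-fold above. Those below included organ products, with values on WT 1 and WT 4 of -6.09 and -5.46 for the liver carboxylesterase Ces1c, -5.66 and -5.80 for the cytochrome P450 Cyp3a11, -4.85 and -4.94 for the gastric trefoil factor Tff1, -4.69 and -5.08 for the atrial myosin light chain Myl7, and -4.20 and -4.24 for the synaptic calcium sensor Syt1. Rgs5, a pericyte gene, lay at -4.27 and -3.54, and the endothelial genes Eng and Icam2 at -2.48 and -2.85 and at -2.19 and -2.23.

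The 12 far above the pool on these arrays include secreted and matrix proteins. The growth factor binder Igfbp5 lay at 3.41 and 5.53, the fibrillar collagen chain Col11a1 at 3.77 and 3.47, the sphingosine phosphate receptor S1pr3 at 3.37 and 3.61 and the metalloprotease Adam12 at 3.70 and 2.59. Outside the 12, since WT 1 was under 4-fold for both, the glial lineage factor Olig2 lay at 1.90 and 2.63 and the cell cycle inhibitor Cdkn1a at 1.77 and 2.71. These genes were chosen after their values were seen, and with 2 values each they carry no test.

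Among 467 features on all 4 arrays without a single gene name, 1 lay at least 4-fold above the pool and 1 at least 4-fold below it on every array. The first, feature_740, ran from 2.80 to 3.20 and the second, feature_1928, from -6.24 to -5.31, as low as the surfactant gene Sftpc (-6.56 to -5.46).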
